A study of Canis lupus familiaris with 26 samples.

Results

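The turquoise module is a group of genes that the study's co-expression network placed together, with the epidermal genes DMKN and SPINK5 among its best connected genes. The 116 members described here, of 18466 genes in the count matrix and 7763 with a mean of at least 5 counts, were chosen in steps. The module lists 359 genes, of which 134 could be paired with a gene identifier. Of these, 6 belong to gene groups set aside by name, and 12 of the other 128 fell below the mean of 5 counts over the samples used. CXCL8, with a mean of 4.79 counts, lay just outside this limit, and PAPOLG, with 6.42, just inside.

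Stroma was cut by laser-capture microdissection from fixed and embedded sections of simple mammary adenoma, a benign tumour of the gland's epithelium that had arisen spontaneously in dogs, and its total RNA was sequenced. Each dog gave 1 sample of adenoma-associated stroma (AAS, which the labels call cancer-associated stroma) and 1 of normal stroma next to unaltered glands. The dogs were all female and 6 to 13 years old, and the tissue blocks were 4 to 29 months old. Pair 14 was left out because of the low depth of its normal sample, so that 12 pairs and 24 samples remained. Total counts ran from 759119 to 1602797 in normal stroma and from 419770 to 1614120 in AAS. Values below are counts per 1000000 (CPM) scaled by TMM, given as mean ± SD with n = 12 in each group, and fold changes are log2 values of AAS over normal stroma with their standard error (SE).

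The epidermis is a stratified epithelium whose cells leave the basal layer, harden and form a water barrier before they are shed. SPINK5 encodes an inhibitor of the serine proteases that drive shedding, DMKN a protein secreted by differentiating keratinocytes, and CDSN an adhesion protein of the outer layers. Stroma, in contrast, is built by fibroblasts that lay down matrix. In samples of mixed cells, fewer cells of a type and less RNA per cell cannot be told apart.

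The choice of members used these samples in more than one way. The network was built from the most variable genes over the stroma of adenomas and carcinomas, these 24 samples included, so that likeness among members across samples is a description. The identifiers of 79 members come only from a list ordered by the significance of AAS against normal stroma, and their fold changes are given with no p-value. The identifiers of the other 37 are in a list ordered by identifier, and adjusted p-values are given for these. A gene was called at an adjusted p-value (Benjamini-Hochberg over 7763 genes, quasi-likelihood test of edgeR) below 0.05 where the log2 fold change was above 1 or below -1. Called or not called, without further words, refers to this test with no term for the pair.

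The label was checked against markers of keratinocytes. Of 18 markers of suprabasal keratinocytes, 10 stand in the turquoise list, among them KRT1, KRT10 and DSG1, but none of these 10 could be paired with an identifier. KRT1, DSG1 and FLG2, which the study names among the top hub genes of the module, are thus missing here. The only marker of that kind with an identifier was CDSN, which is not in the turquoise list. It lay at 13.8 ± 17.9 CPM in normal stroma and at 1.23 ± 3.34 CPM in AAS. CDSN had 0 counts in 4 normal samples and 9 AAS samples, and the groups overlapped. Its mean log2(CPM + 1) was lower in AAS by 1.97 (mean difference -1.97, two-sided permutation test with 100000 resamples, p = 0.0156; adjusted over 2 markers, 0.0230). The permutation test ignored the pairs, and an exact sign-flip test over the pairs gave CDSN p = 0.0352. Across all genes CDSN was not called (log2 fold change -3.25, SE 1.01, edgeR adjusted p = 0.0850). A basal marker, KRT15, went the other way, with 4.79 ± 5.64 CPM in normal stroma and 42.9 ± 53.7 CPM in AAS (mean difference 2.22, permutation p = 0.0230; adjusted over 2 markers, 0.0230; edgeR adjusted p = 0.0850). The identifier of KRT15 comes from the list ordered by significance, so its p-values are not independent of that choice. The permutation p of CDSN adjusted over 2 markers draws on that of KRT15 and shares this limit. Without pair 3, 8 or 12 the permutation p of KRT15 was 0.0504, 0.0608 and 0.0610. With 11 epidermal and barrier genes among 116, most members with an identifier have other known functions, and they are described by function below. The keratinocyte genes of the module that lack an identifier are not in this count, so it does not give the make-up of the whole module.

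Of the 11 epidermal and barrier members, edgeR called 0 with or without a term for the pair, and 7 of 11 had a fold change below 0. At an unadjusted p under 0.05, 2 were higher and 1 lower, and with the pair term 0 and 3, while DESeq2 called SPINK5 without that term and MUC5B with it. Over all 7763 genes tested, 1.7% were called, 0.683% higher and 1.02% lower in AAS. The median log2 fold change of the 11 was -0.28, against 0.01 over all genes. Both genes that mark the module stood among these, and their fold changes had opposite signs.

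SPINK5 ranged from 0 to 117 CPM in normal stroma, with a median of 14.6, and from 0 to 11.0 CPM in AAS, with a median of 0.253. The normal samples of pairs 9 and 11 held by far the highest levels, 117 and 77.4 CPM, and the groups overlapped. The level was lower in AAS in 9 pairs and higher in 2, with a log2 fold change of -2.92 (SE 0.84). It was not called, but was called by DESeq2 without the pair term, with no filter on low counts, with all 13 pairs and without pair 3, 4 or 12. The same pair of normal samples also held the highest levels of CDSN, 54.9 and 38.4 CPM.

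DMKN ranged from 0 to 41.3 CPM in normal stroma and from 1.05 to 72.9 CPM in AAS, with medians of 21.8 and 32.4. The 4 highest values were all AAS samples, those of pairs 15, 3, 4 and 5, although the groups overlapped. In 7 pairs AAS was higher and in 5 lower, with a log2 fold change of 0.79 (SE 0.50).

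SERPINB13, a protease inhibitor of squamous epithelia, ranged from 0 to 16.3 CPM in normal stroma and from 0 to 187 CPM in AAS. The AAS sample of pair 15 alone held 39.0% of the summed level of all 24 samples. The fold change was 2.13 (SE 0.79), and leaving out 1 pair at a time brought it to between 1.20 and 2.36. ENDOU, which encodes an endoribonuclease, was counted in every sample, from 31.4 to 89.4 CPM in normal stroma and from 40.4 to 176 CPM in AAS. It was higher in AAS in 10 pairs, by 0.63 (SE 0.29) on the log2 scale.

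The 2 mucins had fold changes of opposite sign, and neither was called by edgeR with or without the pair term. MUC4, a membrane mucin, averaged 52.4 ± 32.7 CPM in normal stroma against 79.4 ± 56.1 CPM in AAS, with 10 pairs higher. MUC5B, a secreted gel-forming mucin, was at 34.2 ± 29.2 and 15.6 ± 23.5 CPM and was lower in 10 pairs. The other members of the list were HOPX, a homeodomain protein without DNA binding, with a log2 fold change of -0.59 (SE 0.66), the cytochrome P450 CYP2S1 with -1.21 (SE 0.63), the glycerol channel AQP3 with -0.67 (SE 0.74), EXPH5 with -0.28 (SE 0.48), and the melanocyte enzyme TYRP1 with -0.28 (SE 0.80, edgeR adjusted p = 0.980).

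**Figure D1:**
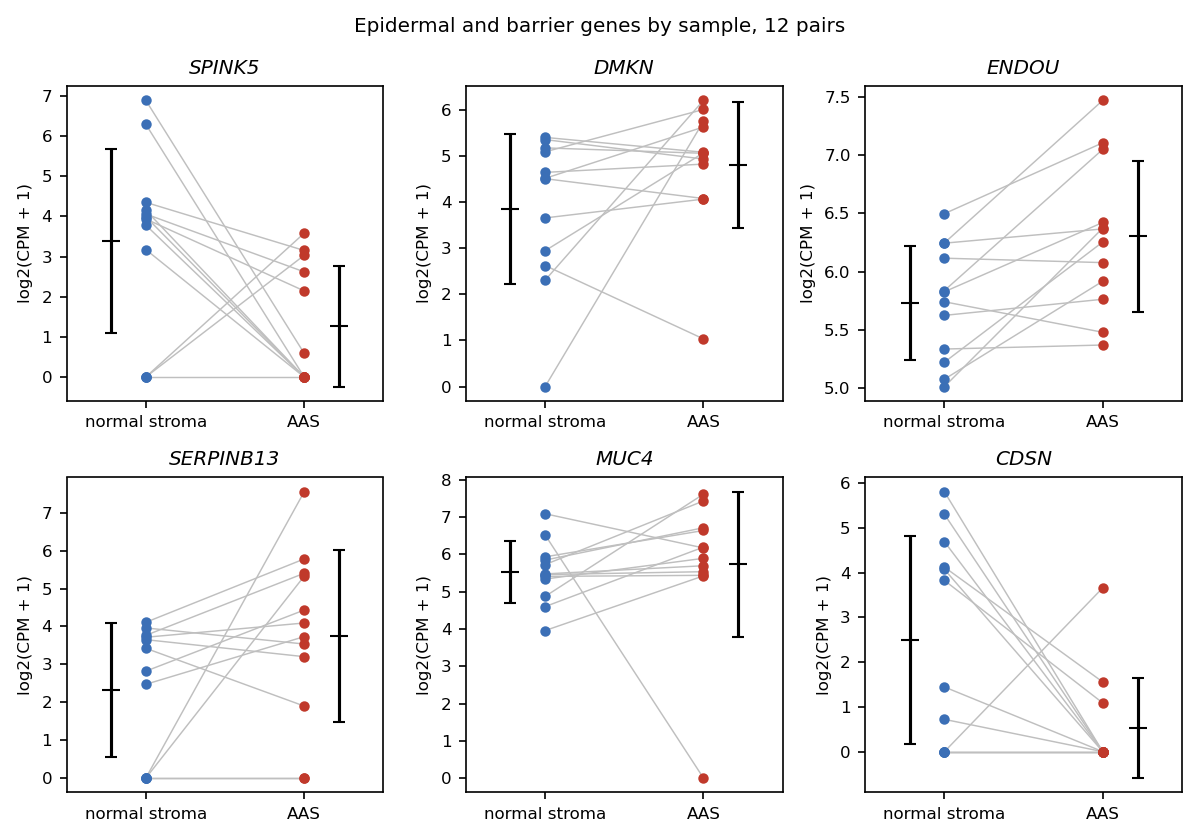
Levels of 5 epidermal and barrier members and of the marker CDSN, as log2(CPM + 1), in normal stroma (blue) and AAS (red). Each point is a sample, grey lines join the 12 pairs, and black bars give the mean and SD; SPINK5 and CDSN lay lower in AAS in most pairs, and ENDOU and MUC4 higher in 10 of 12.

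Fibroblast and matrix genes formed the largest list, with 22 members. Of these, edgeR called 4 lower in AAS and 0 higher (8 and 2 at an unadjusted p under 0.05, and 4 and 1 by DESeq2), and with the pair as a term 6 were lower, against a background of 1.38% lower and 0.644% higher. The median log2 fold change was -0.33, and the members ran from C1QTNF4 at -3.98 to CILP at 2.03. Of the 22, 14 lay below 0 and 8 above. Among the called members, C1QTNF4, SERPINF1 and CD248 have identifiers only from the list ordered by significance, so no more is read from the count.

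SSC5D, a soluble scavenger receptor, was at 208 ± 63.9 CPM in normal stroma, from 129 to 311 with a median of 192. In AAS it was at 35.7 ± 34.8 CPM, from 0 to 105 with a median of 32.2. Every AAS sample lay below every normal sample. This held for 3 members, SSC5D, C1QTNF4 and CYP21A2, and for 0.103% of all genes tested, while AAS lay wholly above normal stroma in 0 members and 0.0386% of genes. C1QTNF4 has its identifier only from the list ordered by significance, so the count of 3 is a description. SSC5D fell by 2.55 on the log2 scale (SE 0.58, edgeR adjusted p = 0.0184), in 12 of 12 pairs. The call was lost without pair 11 (adjusted p = 0.0632) and, with the pair as a term, without pairs 7 and 10 (adjusted p = 0.0848).

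FBLN1, which encodes the matrix glycoprotein fibulin-1, ranged from 129 to 749 CPM in normal stroma with a median of 394. In AAS it ranged from 0 to 366 CPM with a median of 77.9. The level was lower in AAS in 12 of 12 pairs, yet the groups overlapped, the highest AAS sample being that of pair 9 and the lowest normal sample that of pair 7. The fold change was -1.72 (SE 0.44, edgeR adjusted p = 0.0446), and -2.08 with the pair as a term (adjusted p = 0.0198). Without 1 pair at a time the adjusted p ran from 0.00938 to 0.120, and the call was lost in 10 of the 12 cases.

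THBS2 encodes thrombospondin-2, a matricellular protein. Its median was 103 CPM in normal stroma, from 15.8 to 126, and 9.91 CPM in AAS, from 1.94 to 156. The AAS sample of pair 7 lay above every normal sample, and the level was lower in 10 pairs. It was not called without the pair term (-1.41, SE 0.58, edgeR adjusted p = 0.355) and was called with it (-2.25, SE 0.47, adjusted p = 0.00451).

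C1QTNF4, a secreted protein of the C1q and TNF family, had no overlap between the groups, with 34.7 to 241 CPM in normal stroma and 0 to 20.2 CPM in AAS. Its log2 fold change of -3.98 (SE 0.45) was the lowest of the 116 members. SERPINF1, which encodes the secreted anti-angiogenic factor PEDF, was lower in 12 of 12 pairs, with 89.0 ± 49.2 CPM in normal stroma and 19.6 ± 14.3 in AAS. CD248, the surface receptor endosialin, was also lower in 12 of 12 pairs, at 221 ± 88.4 and 106 ± 77.0 CPM, and was called with the pair as a term (-1.37, SE 0.35) and with no filter on low counts, but not otherwise by edgeR in these 12 pairs.

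Some matrix members differed little or were higher in AAS. The neighbouring small proteoglycan genes ASPN, OGN and OMD, which lie next to one another and within CENPP, had log2 fold changes of -0.03, 0.17 and 0.57, with edgeR adjusted p of 0.993, 0.985 and 0.905. CILP, a cartilage matrix protein, averaged 13.0 ± 12.5 CPM in normal stroma against 53.8 ± 54.9 in AAS, with 9 pairs higher (2.03, SE 0.66). It was not called by edgeR with the filter on low counts, but was called without that filter and by DESeq2 with and without the pair term. The listed fibroblast markers with an identifier, all outside the module, were DCN, PDGFRA, FBN1 and THY1. Their summed level ran from 532 to 1726 CPM in normal stroma and from 165 to 993 CPM in AAS, and its part in the lower levels of the matrix members was not tested. DCN carried most of that difference, with 596 ± 283 CPM in normal stroma and 150 ± 169 in AAS and no pair higher. It was not called (-1.97, SE 0.55), but was called with the pair as a term (-2.61). PDGFRA, FBN1 and THY1 had log2 fold changes of -0.47, -0.32 and -0.42, with 3 or 4 pairs higher, and were not called. The identifiers of DCN, FBN1 and THY1 come only from the list ordered by significance of this contrast, so their levels are a description.

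**Figure D2:**
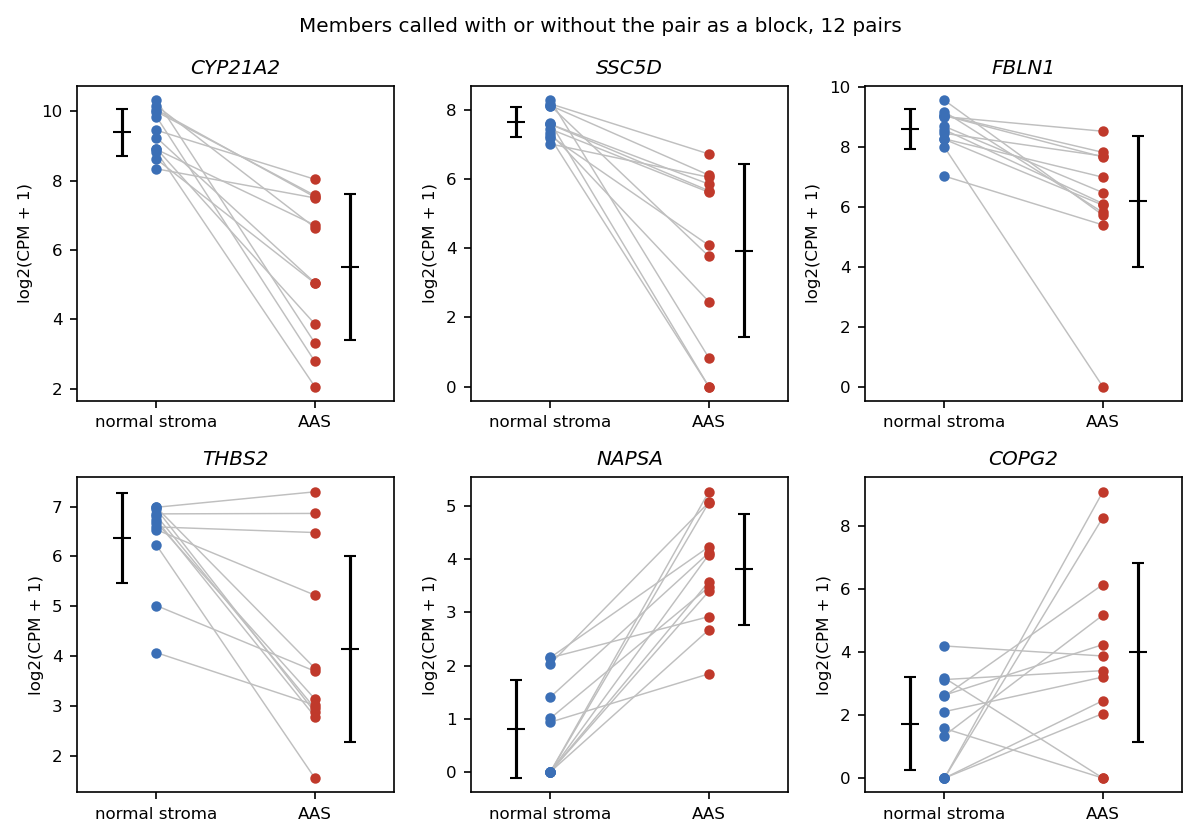
Levels of the 6 members, among the 37 with an independently listed identifier, that were called with or without a term for the pair, as log2(CPM + 1), in normal stroma (blue) and AAS (red). Points are samples, grey lines join the pairs, and black bars give mean and SD; CYP21A2, SSC5D and FBLN1 were lower in AAS in 12 of 12 pairs and NAPSA higher in 12 of 12.

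Adhesion, guidance and signalling receptors were 11 members, of which edgeR called 2 lower and 0 higher in AAS (2 and 1 at an unadjusted p under 0.05, and 2 and 0 by DESeq2). Over all genes tested, 1.02% were called lower and 0.683% higher. The identifiers of the called members here come only from the list ordered by significance. ITGA11, the alpha chain of a collagen-binding integrin of fibroblasts, fell from 80.5 ± 31.8 to 14.7 ± 13.3 CPM (-2.37, SE 0.42). ARVCF, a catenin that binds cadherins, fell from 133 ± 62.9 to 37.5 ± 28.1 CPM (-1.86, SE 0.46). Both were lower in 12 of 12 pairs, although the groups overlapped. ARVCF lost its call with 13 pairs and without pair 6, 8, 11 or 13. SOSTDC1, a secreted antagonist of BMP and Wnt signals, was at 73.7 ± 35.1 and 67.7 ± 39.2 CPM (-0.12, SE 0.34, edgeR adjusted p = 0.978).

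Of 11 immune and inflammatory members, edgeR called 0 without the pair term and 0 with it, against 1.7% and 2.02% of all genes tested. At an unadjusted p under 0.05, 1 was higher and 1 lower in both fits, and DESeq2 called 0 without the pair term and GPR183 with it. Their median log2 fold change was -0.77. TNFRSF17, the receptor BCMA of plasma cells, ranged from 4.05 to 319 CPM in normal stroma and from 32.1 to 388 CPM in AAS. S100A4, a calcium-binding protein of motile and immune cells, ranged from 11.6 to 542 CPM in normal stroma and from 0 to 384 CPM in AAS. SHARPIN, part of a ubiquitin ligase in inflammatory signalling, reached 364 CPM in the normal sample of pair 12, which held 29.9% of its summed level. In each of these genes the SD within a group was more than 0.5 of the mean.

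Channels and transporters were 16 members, of which 2 were called higher and 4 lower in AAS, against 0.683% and 1.02% of all genes tested. The identifiers of all these called members come only from the list ordered by significance of the same contrast, so no more is read from the count. SLC1A7, a glutamate transporter, was at 634 ± 305 CPM in normal stroma and 123 ± 133 CPM in AAS, lower in 11 pairs (-2.36, SE 0.47). ATP6V0D2, a subunit of the proton pump of acidic organelles, fell from 55.4 ± 41.0 to 4.50 ± 4.99 CPM (-3.76, SE 0.57). TRPC1, a cation channel, had 0 counts in 7 AAS samples and 3 normal samples (-3.25, SE 0.84), and TMEM255B was lower in 10 pairs (-1.47, SE 0.40). TRPC1 lost its call without pair 3, 5, 9, 11 or 12, and TMEM255B without any 1 of 9 pairs. In the other direction, GRIA3, a subunit of AMPA-type glutamate receptors, rose from 52.0 ± 26.5 to 136 ± 74.6 CPM, in 10 pairs (1.39, SE 0.31). The GRIA3 call was lost without pairs 7 and 10 once the pair was a term. SCN4A, the sodium channel of skeletal muscle, was at 4.76 ± 5.02 CPM in normal stroma and 39.3 ± 51.3 CPM in AAS, higher in 11 pairs (3.03, SE 0.69), and lost its call without pair 8 or 11. SLC1A7 overlaps PODN in the genome, and PODN was not called (-1.18, SE 0.83).

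Metabolic and lipid enzymes were 15 members, of which 2 were called higher and 2 lower, against 0.683% and 1.02% of all genes tested. Of the called members, ABHD12B and LANCL1 have identifiers only from the list ordered by significance. CYP21A2 encodes the steroid 21-hydroxylase. It was at 739 ± 329 CPM in normal stroma, from 324 to 1278 with a median of 654, and at 93.1 ± 90.8 CPM in AAS, from 3.18 to 263 with a median of 65.9. The groups did not overlap, and the level fell by 3.00 on the log2 scale in 12 of 12 pairs (SE 0.57, edgeR adjusted p = 0.00446). Over the alternatives tried, the adjusted p ran from 2.9e-10 to 0.0260. CYP21A2 overlaps TNXB, the matrix glycoprotein tenascin-X, which fell from 589 ± 255 to 92.4 ± 93.2 CPM, also in 12 of 12 pairs (-2.65, SE 0.51, edgeR adjusted p = 0.00469). The share of CYP21A2 counts that came from TNXB transcripts was not tested.

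NAPSA, an aspartic protease known from lung and kidney, rose in AAS. It had 0 counts in 6 normal samples and at most 3.45 CPM in the others, and ranged from 2.59 to 37.6 CPM in AAS with a median of 13.5. AAS exceeded normal stroma in 12 of 12 pairs, although the groups overlapped slightly. The fold change of 3.69 (SE 0.80, edgeR adjusted p = 0.00432) rests on few counts in normal stroma, and some AAS samples held few as well. NAPSA had 2 to 48 counts in AAS samples, and in pair 7 the difference was 2 counts against 1. ABHD12B, a hydrolase-domain protein, was counted in every sample and higher in AAS in 12 of 12 pairs, at 80.3 ± 28.4 and 189 ± 82.4 CPM (1.23, SE 0.25). ABHD12B overlaps PYGL, which was higher in 10 pairs but was not called (1.21, SE 0.58). LANCL1, a glutathione-binding protein, fell from 77.8 ± 65.3 to 8.30 ± 7.20 CPM in 11 pairs (-3.13, SE 0.52). With the pair as a term, BCHE (butyrylcholinesterase, 2.88, SE 0.70) and PTGIS (prostacyclin synthase, -2.45, SE 0.70) were called as well. Both have identifiers only from the list ordered by significance.

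Translation, mitochondrial and secretory genes were 11 members, of which 1 was called higher and 1 lower, against 0.683% and 1.02% of all genes tested. The identifier of TFG, the lower one, comes only from the list ordered by significance. COPG2, a subunit of the coat of transport vesicles, had a fold change of 4.26 (SE 1.05, edgeR adjusted p = 0.0338). Its level was at most 17.2 CPM in normal stroma, and the AAS samples of pairs 5 and 6 held 538 and 305 CPM. The AAS sample of pair 5 alone held 51.1% of the summed level, and with the pair as a term the fold change was 2.53 (adjusted p = 0.560). The call was also lost without pair 5, 6, 7, 8, 11 or 13, with adjusted p up to 0.0899. TFG, which acts in export from the endoplasmic reticulum, was at 373 ± 211 CPM in normal stroma and 71.8 ± 56.1 CPM in AAS, lower in 12 of 12 pairs (-2.35, SE 0.51), and lost its call with the pair as a term. TFG lies next to ABI3BP, a matrix gene that fell as well (-2.15, SE 0.53), in 11 pairs. EEF1A1, the elongation factor of translation, was counted in every sample, with 293 ± 79.6 and 253 ± 66.1 CPM (-0.21, SE 0.18, adjusted p = 0.848). Ribosomal protein genes and EEF1A1 have near-identical copies in the genome, so their counts are uncertain.

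A few members owed most of their level to single samples. In 10 of the 116, more than 50% of the summed CPM came from 1 sample. KRTCAP2, a subunit of the oligosaccharyltransferase, reached 1388 CPM in the AAS sample of pair 7, which is 79.1% of its summed level, and its other values stayed at or below 109 CPM. Its fold change of 3.32 (SE 1.06) became 0.73 without pair 7. MRPL13, a mitochondrial ribosomal protein, reached 144 CPM in the AAS sample of pair 12, or 74.7% (3.34, SE 0.97, edgeR adjusted p = 0.0563). It was called without pair 5, without pair 15 and with no filter on low counts, with adjusted p from 0.0303 to 0.0892 over single pairs left out, while with the pair as a term the fold change was 1.98 (adjusted p = 0.613).

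Muscle, cytoskeleton and cilium genes were 11 members. Of these, edgeR called 0 without the pair term and 0 with it, against 1.7% and 2.02% of all genes tested. At an unadjusted p under 0.05, 1 was higher and 0 lower, and DESeq2 called 0 without the pair term and HEATR4 with it. CAPN11, a calpain, was at 169 ± 95.0 and 133 ± 60.5 CPM (-0.35, SE 0.28, edgeR adjusted p = 0.819). HYDIN, a protein of motile cilia, was at 58.4 ± 41.9 and 76.5 ± 38.1 CPM. Of the 8 members under transcription and other, edgeR called 0 without the pair term (2 higher and 3 lower at an unadjusted p under 0.05, and GATA4 and PRR7 by DESeq2) and 1 with it, MED12L of the Mediator family (-1.95, SE 0.48). The background was again 1.7% without and 2.02% with that term, and the identifier of MED12L comes only from the list ordered by significance. PRR7, a proline-rich membrane protein, was lower in 11 pairs, at 212 ± 90.1 and 76.4 ± 50.2 CPM (-1.43, SE 0.40). It was not called by edgeR with or without the pair term in the 12 pairs. It was called with each other filter on low counts, with a non-robust prior and by DESeq2 with or without the pair term. Calls also came without pair 6, 10 or 11, and without pairs 7 and 10. The liver and gut transcription factor HNF4A was counted in every sample, from 47.5 to 821 CPM in normal stroma and from 71.8 to 731 in AAS (0.18, SE 0.53).

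Over all 116 members, 18 were called, 13 lower and 5 higher in AAS, and with the pair as a term 22, of which 16 were shared. The background was 1.7% without and 2.02% with that term. No more is read from this count, because most identifiers came from the list ordered by the same contrast. Among the 37 members with an identifier in the other list, 5 were called (CYP21A2, SSC5D, FBLN1, NAPSA and COPG2), against 1.68% of the 1188 genes tested that share that source. Those members had been picked among the most variable genes over samples that include these. Over the members 61 fold changes lay below 0 and 55 above, with a median of -0.21.

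**Figure D3:**
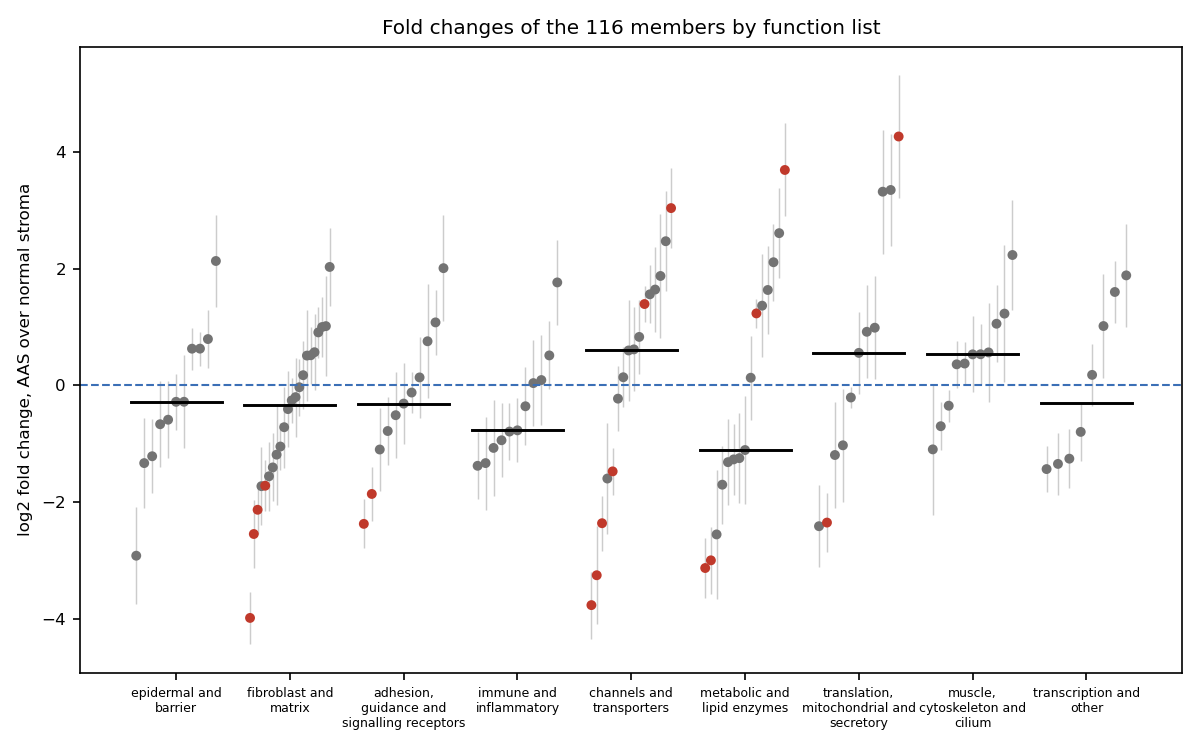
Log2 fold change of AAS over normal stroma for each of the 116 members, by function list. Points are genes with SE bars, and red points are called. Black lines give the list's median and the dashed line the median of all 7763 genes (0.01). No red point stands in the lists epidermal and barrier, immune and inflammatory, muscle, cytoskeleton and cilium, and transcription and other. Over all genes tested, 1.7% were called.

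**Figure D4:**
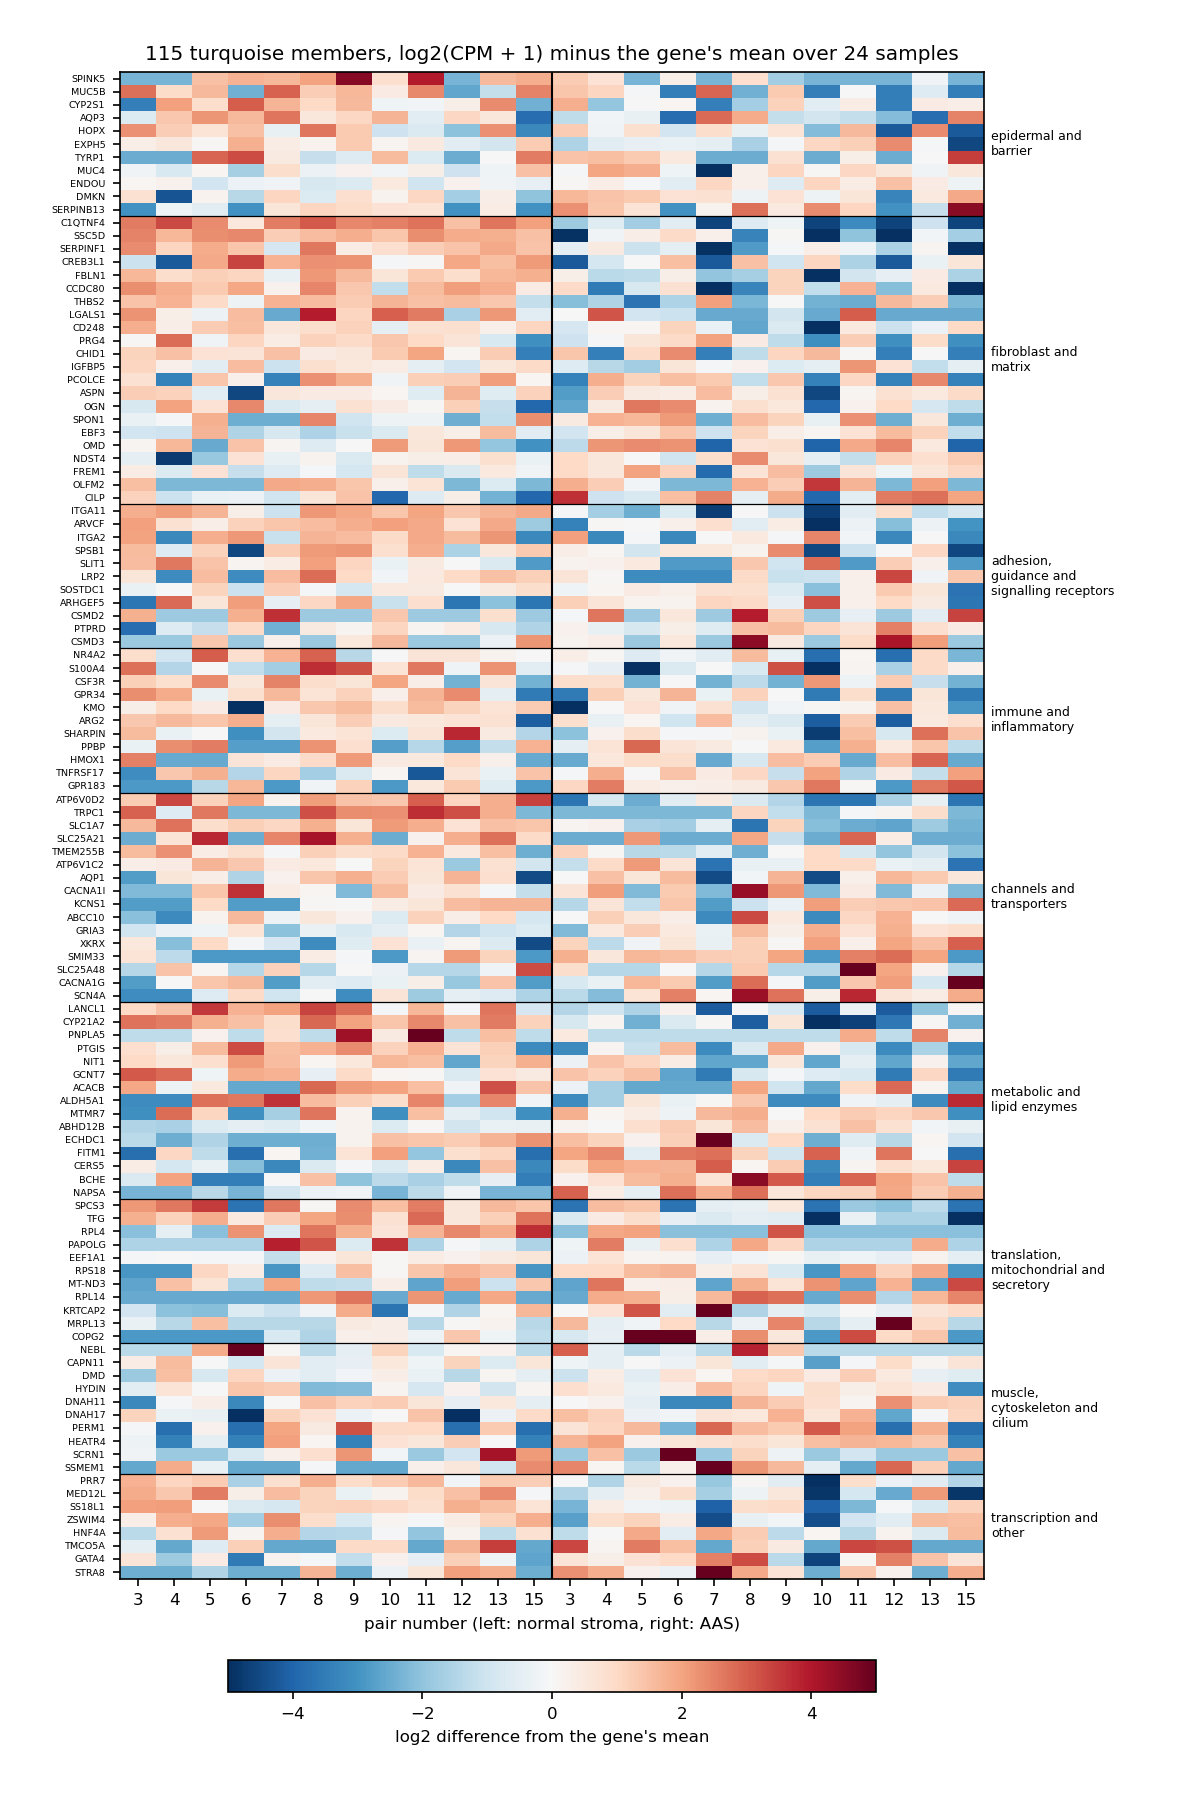
Log2(CPM + 1) of 115 of the 116 members in 24 samples, each gene minus its own mean, grouped by function list and ordered by fold change within it; the vertical line separates 12 normal stroma samples from 12 AAS samples. The AAS samples of pairs 7, 10 and 15, with 46, 59 and 48 members at 0 counts, hold many dark blue cells.

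Members with 0 counts were unevenly spread over samples. Between 1 and 37 of the 116 had 0 counts in a normal sample and between 4 and 59 in an AAS sample. The AAS samples of pairs 10, 15 and 7 held the most, 59, 48 and 46, and at their depth 3 counts correspond to 9.53, 5.34 and 24.6 CPM. In the AAS sample of pair 7 a single gene took 84.9% of all counts, and 1220 genes had at least 10 counts. Without pairs 7 and 10, 18 members were called, 17 of them shared with the comparison of 12 pairs (background 1.53%), and with the pair as a term 19 were called (background 1.8%). A value of 0 in these samples is not shown to be absence.

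**Figure D5:**
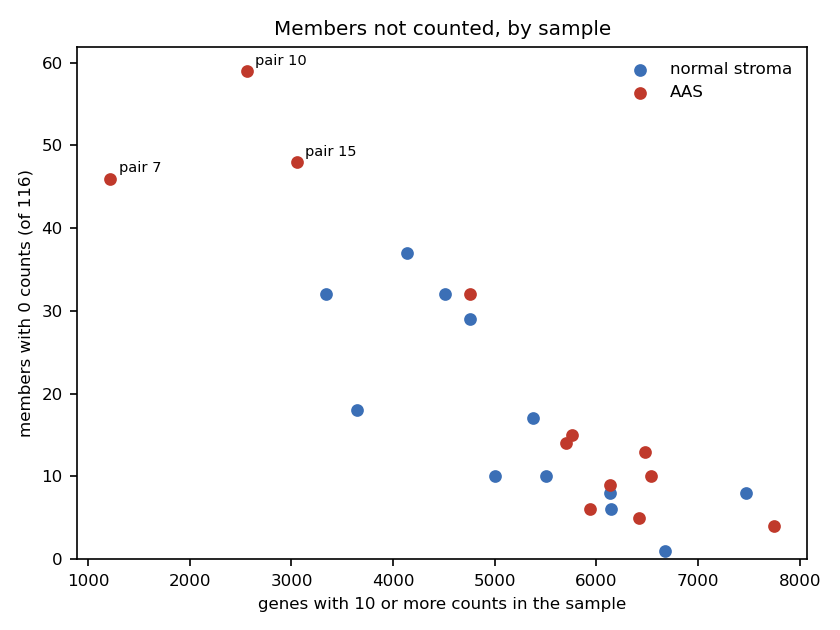
Members with 0 counts (of 116, vertical axis) against the number of genes with at least 10 counts (horizontal axis) in each of 24 samples, normal stroma in blue and AAS in red. The AAS samples of pairs 10, 15 and 7, at 59, 48 and 46 members, lie highest.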

How the data were processed

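The authors quantified reads with kallisto 0.44.0 on Ensembl transcripts of CanFam3.1, summed them per gene with tximport and deposited estimated counts per gene, stored as whole numbers and not normalized. Counts were rounded before testing, which changed none. Samples were grouped by their labels, and the pair number joins the samples of 1 dog; deviations from the group means correlated at 0.0807 on average within pairs. Genes averaging 5 or more counts were scaled by TMM and tested with edgeR 4.0.16 in R 4.3.3 (quasi-likelihood test, robust, no pair term). In simulated counts it recovered 134 of 196 changed genes, with 4 false calls among 7176 genes. DESeq2 gave 19 false calls in the same counts and 44 with the pair term. The simulated counts held no pair effect. Alternatives were the pair as a block, RLE scaling, other filters, DESeq2 1.42.0, a non-robust prior, 13 pairs, omission of the 10 most counted genes and omission of single pairs. Omission of pairs 7 and 10 was chosen after seeing the data. Permutation tests used scipy 1.17.1. Symbols came from the study's first 2 supplementary tables, which pair 3302 identifiers with a symbol, and the module from the third. Overlapping genes came from RefSeq (UU_Cfam_GSD_1.0, 114 of 116 members found), another build than CanFam3.1, so no coordinates are given. The kit marks strand, but how quantification used it is not given in the sources used here. The genes named were the 8 best connected members, the 3 most counted of each function list, called members of the second table, the 3 largest and 3 smallest fold changes and those nearest the count limit; others were named after their values were seen. Members, function lists and tests were chosen with earlier results of these data known. Sequences and promoters were not analysed here, and 1 member is counted but not reported here by its values.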

Additional observations from a re-analysis of the deposited data

Results flagged for a closer look

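The AAS sample of pair 14, which took no part in the comparison of 12 pairs, held 17 of the 116 members above every one of the 12 normal samples. The share of all genes with such an excess was not computed, so no more is read from this count. The highest of the 17 were THBS2 with 267 CPM, ARVCF with 208 CPM, ABHD12B with 195 CPM, AQP1 with 152 CPM and MUC4 with 149 CPM. Between 50 and 100 CPM lay BCHE with 72.5, MTMR7 with 65.5, CILP with 61.5 and HEATR4 with 52.4. Below 50 CPM lay PTPRD with 47.4, SPON1 with 45.3, SCN4A with 44.3, STRA8 with 36.3, CACNA1G with 29.2, CERS5 with 26.2, FREM1 with 24.2 and NAPSA with 7.05. For the called members ABHD12B, SCN4A and NAPSA the direction was that of the 12 pairs, and for THBS2 and ARVCF the opposite one, since both were lower in most or all of the 12 pairs. ARVCF exceeded the highest normal sample only narrowly (207.6 against 207.3 CPM). Pair 14 was scaled by TMM over all 13 pairs and the other samples over 12, so an excess this small is not established. MUC4 was at 161 CPM in the normal sample of pair 14, so that it was not higher in AAS within that dog.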

How the results depend on the processing

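With the pair as a block, 157 genes and 22 members were called, 5 of them among the 37 members of the second table, and COPG2 and TFG lost their call. Over all genes 132 calls became 74 with filterByExpr, 1790 with no filter, 211 with DESeq2 and 332 with DESeq2 and the block, and 92 to 143 without single pairs. The 18 called members became 36 with no filter, 37 with DESeq2 and the block, and 12 to 19 without single pairs. Of the second table's 5, filterByExpr kept 3, no filter gave 9, and single pairs left out gave 2 to 5, the lowest without pair 11. With no filter the median log2 fold change of all genes moved by 0.211, and 1304 of the 1790 calls were higher in AAS, against 53 of 132. The basal marker KRT15, whose identifier comes from the list ordered by significance of this contrast, kept its direction without single pairs (1.85 to 2.57). With the block, 7 members had the other sign, of which 0 were called by edgeR in either fit. Among named members 4 had the other sign under some alternative, HNF4A only without pair 8 (-6.6e-05). The log2 fold change of SOSTDC1 lay between -0.31 and 0.0518 without single pairs, at 0.0772 without pairs 7 and 10 and at 0.0593 with the block too. The log2 fold change of SHARPIN became 0.12 with the block, 0.18 with DESeq2 and the block, -0.90 to 0.68 without single pairs and 0.29 without pairs 7 and 10 with the block. The log2 fold change of PAPOLG became 0.73 with the block and 1.08 with DESeq2 and the block. The cause was not tested. Among recomputed fold changes of named members, 849 kept direction and side of the threshold, 23 fell below it and 7 passed it. Common biological variation of 87.9% of a gene's mean limits what 12 pairs can show, and below about 3 counts per sample levels are not resolved.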

Other observations

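Pair 14 gave counts for 103 of the 116 members. Its normal sample, with 83727 counts in all, had 0 counts for 45 members and its AAS sample for 28. Of the 13 members called lower in AAS over the 12 pairs, 9 were also lower in AAS in pair 14, and of the 5 called higher, 3 were higher. SPINK5 was at 40.3 CPM in the normal sample of pair 14 and had 0 counts in its AAS sample. DMKN had 0 counts in that normal sample and 6.05 CPM in the AAS sample.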
